A study of Mus musculus with 12 samples.

Results

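The mRNAs of 10 mouse keratins of the epidermis were followed on 2-colour arrays of 44397 spots. The genes are Krt5 and Krt14, keratins of the basal layer, Krt1, Krt10, Krt2 and Krt77, keratins of the suprabasal layers, and Krt6a, Krt6b, Krt16 and Krt17, keratins of hyperproliferative or injured epidermis. They were chosen by name, through the probe accession, out of 20659 genes with a symbol and a probe, and were represented by 14 probes. Each of 12 samples, labelled with Cy5, was hybridised together with a Cy3-labelled pool of all conditions, and each combination of genotype (Eng+/- or wt), day (50 or 90) and treatment (none named, clp or tpa) had 1 array. Eng encodes endoglin, a co-receptor for Tgf-β and Bmp ligands. The strain, the age of the animals, what the days count from, and what clp and tpa stand for are not given in the sources used here, and neither is the allele behind Eng+/-. Every array shares the Cy3 pool. The wt titles that name no treatment also contain "pool", and whether those samples were themselves pooled is not stated.

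Keratins form the intermediate filaments of epithelial cells as obligate pairs of a type I chain (Krt10, Krt14, Krt16, Krt17) and a type II chain (Krt1, Krt2, Krt5, Krt6a, Krt6b, Krt77). Basal keratinocytes make the Krt5 and Krt14 pair and switch to Krt1 and Krt10 as they leave the basal layer to differentiate. Krt6a, Krt6b, Krt16 and Krt17 are known from the outer layers of the hair follicle and are induced in the epidermis between follicles after wounding or irritation.

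The submitters describe the material as the E14 line of mouse embryonic stem cells, whereas all 14 keratin probes had Cy5 signal well above background on 12 of 12 arrays and 4 of the 10 genes reached the ceiling of the scanner on 6 or more arrays. Of 8 embryonic stem cell markers, 5 were tested, and all 5 were above background on 12 of 12 arrays. Zfp42 was not above background on any array. Per array, 65.67 to 77.68% of Cy5 signals were above background, so this alone says little about the cell type. The summed Cy5 signal of the 5 tested markers lay between 1760 and 11800 per array. The targeted gene Eng had a negative Eng+/- minus wt difference in 5 of 6 pairs (-0.28 to -1.61 on the log2 scale), but a positive one (0.63) at 50 d with tpa, so the genotypes of those arrays are used only as labelled. Whether the Eng probe lies in the deleted part is not given. Per array, the median of all Cy5 signals lay between 166.5 and 573. Each treatment lay on 1 slide of 4 arrays, so treatment and slide cannot be told apart. Genotype and day vary within each slide. Markers of the growing hair set 3 arrays apart, called hair-poor here. Their median log2 ratio over 23 tested genes was -5.55 on Eng+/- at 90 d with no named treatment and -4.70 (Eng+/-) and -4.91 (wt) on both tpa arrays at 50 d, against -1.29 to 0.96 on the other arrays. In such bulk RNA, fewer cells of a type and less RNA per cell cannot be told apart.

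Promoter sequences around the start were held by the RefSeq table for 5 of the 10 genes, Krt5, Krt14, Krt10, Krt2 and Krt77 (build GRCm38.p6, 250 bases before to 50 after the start). The 3 suprabasal ones are shown because Krt77 was the keratin whose treatment difference passed the test. Capitals mark matches to TATAAA or TATATA, and to CCAAT, searched on both strands. All lie on the minus strand of the chromosome.
Krt77 (chr15:101869656-101869955): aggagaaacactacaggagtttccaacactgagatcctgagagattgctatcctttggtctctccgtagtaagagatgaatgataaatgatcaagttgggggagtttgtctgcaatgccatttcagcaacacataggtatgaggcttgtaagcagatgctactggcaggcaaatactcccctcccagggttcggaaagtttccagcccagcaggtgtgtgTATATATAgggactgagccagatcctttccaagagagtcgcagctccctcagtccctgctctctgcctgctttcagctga
Krt10 (chr11:99389315-99389614): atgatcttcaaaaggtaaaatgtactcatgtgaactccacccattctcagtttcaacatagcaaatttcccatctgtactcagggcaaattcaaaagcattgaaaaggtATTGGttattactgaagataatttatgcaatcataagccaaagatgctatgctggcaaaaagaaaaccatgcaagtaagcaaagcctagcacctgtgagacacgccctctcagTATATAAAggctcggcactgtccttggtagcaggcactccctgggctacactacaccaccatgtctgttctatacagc
Krt2 (chr15:101818120-101818419): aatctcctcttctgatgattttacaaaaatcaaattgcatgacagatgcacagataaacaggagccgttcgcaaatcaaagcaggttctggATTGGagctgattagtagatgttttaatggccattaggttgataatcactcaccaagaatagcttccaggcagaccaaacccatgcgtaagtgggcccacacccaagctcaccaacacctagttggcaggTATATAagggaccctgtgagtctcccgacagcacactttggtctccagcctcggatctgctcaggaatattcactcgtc
The TATATA letters, a form of the TATA box, began at -30 and -28 in Krt77, where 2 copies overlap, at -28 in Krt10 and at -29 in Krt2. In Krt10 that match overlaps TATAAA at -26. CCAAT was read on the opposite strand at -141 in Krt10 and at -159 in Krt2. TATATA is held by 5.67% of 32851 promoters of this length, TATAAA by 13.6% and CCAAT by 37.4%. TGANTCA (7.81% of promoters), the core of AP-1 sites, and GGGCGG (35.7%) were also searched, and these letters were not in the windows of the 5 genes. None of the 5 motifs matched in Krt5 or Krt14.

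Krt77, a type II suprabasal keratin, was lower with clp than without a named treatment and lower than with tpa. Its probe was saturated on 0 arrays. With no named treatment the log2 ratios to the pool were 1.67 (Eng+/-) and 2.05 (wt) at 50 d, and 0.93 (Eng+/-) and 0.62 (wt) at 90 d. With clp they were 0.04 (Eng+/-) and -0.46 (wt) at 50 d, and -0.23 (Eng+/-) and -0.47 (wt) at 90 d. With tpa they were 0.60 (Eng+/-) and 0.80 (wt) at 50 d, and 0.60 (Eng+/-) and 0.05 (wt) at 90 d. All 4 clp arrays thus lay below all 4 arrays of each of the other treatments, the nearest being Eng+/- clp at 50 d and wt tpa at 90 d. In order of the mean of both genotypes, the conditions ran from no named treatment at 50 d (1.86) through no named treatment at 90 d (0.77), tpa at 50 d (0.70), tpa at 90 d (0.32) and clp at 50 d (-0.21) to clp at 90 d (-0.35). Among neighbours in that order, the 2 arrays of a condition separated from those of the next between no named treatment at 50 and 90 d and, narrowly (0.05 against 0.04), between tpa at 90 d and clp at 50 d. The tpa arrays of 50 and 90 d differed only beyond the second decimal (0.60 on the nearest array of each).

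**Figure D1:**
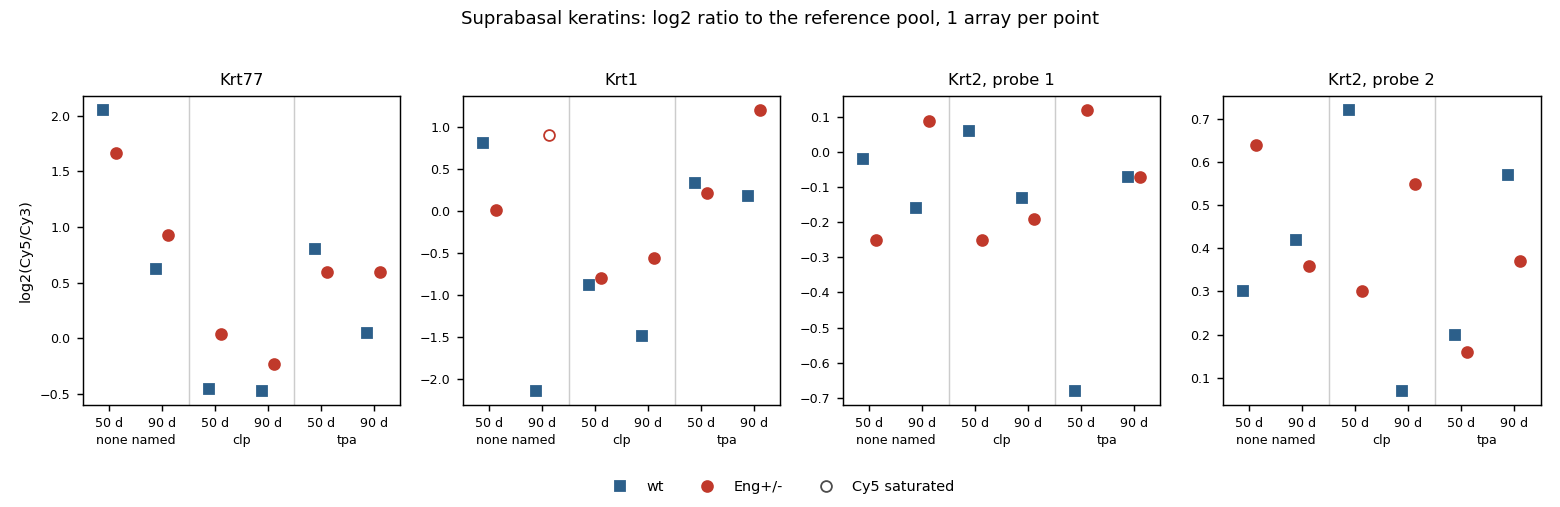
Log2 ratio of Cy5 (sample) to Cy3 (pool) for Krt77, Krt1 and the 2 probes of Krt2, by day and treatment; squares are wt, circles Eng+/-, each point is 1 array, and hollow points had a saturated Cy5 spot. The 4 Krt77 points of clp lie between -0.47 and 0.04, below the 4 points of no named treatment (0.62 to 2.05) and those of tpa (0.05 to 0.80).

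The Krt77 difference of clp minus no named treatment was -1.60 ± 0.19 on the log2 scale (SE of the limma fit, 95% interval -2.02 to -1.18, adjusted p = 0.0147), or 3.03-fold lower. It was negative in 4 of 4 matched pairs (-2.51 to -1.09). Krt77 was the 1 keratin called among the 9 genes that entered the fit, and 7.76% of all 25084 features were called in this comparison. It was also the 1 keratin of 9 whose groups did not overlap with clp lower, as for 3.98% of all features. Of the 9 differences 8 were negative, with a median of -0.49 (0.01 over all features), which is the value of a Krt5 probe saturated on all arrays. With the least saturated probe of each gene the median was -0.65 and 8 were again negative, Krt14, Krt10 and Krt1 still holding saturated spots. Under median centring of the arrays in place of loess, which moved the median of all features to 0.24, the Krt77 difference was -0.86 (adjusted p = 0.344) and 4 of the 9 were negative. The call was also lost without wt clp at 90 d (-1.58, adjusted p = 0.0548) or without wt clp at 50 d (-1.50, adjusted p = 0.0631), while the difference stayed between -1.76 and -1.44 when any 1 of the 12 arrays was left out. Without the hair-poor Eng+/- array at 90 d it was -1.56. The adjusted p of such runs also moves with the number of features called over the whole set, which is given at the end.

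The unnormalised signals of Krt77 separated in the same way. The Cy5 signal ran from 3900.5 to 8659 with clp, from 10178 to 34097 with no named treatment and from 13031 to 22560 with tpa. The Cy3 signal of the pool at this probe was also lowest on the clp slide (1173 to 1623.5, against 1679.5 to 2374.5 and 1726 to 2052). With Cy5 alone, quantile normalised, the difference of clp minus no named treatment was -2.17 (adjusted p = 0.00203).

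The clp and tpa comparisons use the same arrays with no named treatment. For tpa minus no named treatment, the Krt77 difference was -0.81 ± 0.19 (limma, adjusted p = 0.0772), negative in 4 of 4 pairs, and it came to 0.02 under median centring. No keratin of the 9 was called with tpa (0.132% of all features were), and 2 had an unadjusted p under 0.05, as did 6520 of all 25084 features. Of the 9 differences 7 were negative, and the median was -0.35, the value of Krt10, which includes saturated spots. Under median centring 9 of 9 were positive, with a median of 0.30 (0.34 over all features). Between the treatments themselves, Krt77 was lower with clp than with tpa by -0.79 ± 0.19 (limma, 95% interval -1.22 to -0.37, adjusted p = 0.036), in 4 of 4 pairs (-1.26 to -0.52), the 1 keratin called of 9 against 8.17% of all features. That call was lost under median centring (-0.89, adjusted p = 0.393) and without any 1 of the 8 clp and tpa arrays (-0.91 to -0.68, adjusted p up to 0.191). At 90 d alone, without the hair-poor tpa arrays, the pairs stood at -0.83 (Eng+/-) and -0.52 (wt).

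Markers of other cell types moved with clp beside Krt77. In clp minus no named treatment 7.76% of all features were called. Of 8 immune markers 7 were tested, all above background on 12 arrays, and 5 were called lower with clp than with no named treatment, among them Adgre1, the macrophage marker F4/80 (-1.89 ± 0.20, limma adjusted p = 0.0134), and Csf1r, a receptor of the macrophage lineage (-1.91 ± 0.23, adjusted p = 0.0147). The median log2 ratio of the immune list per array was -1.29 to -0.88 with clp and 0.46 to 0.79 with no named treatment. Its summed Cy5 signal was 28700 to 72300 with clp, 43000 to 129000 with no named treatment and 106000 to 120000 with tpa. Of 7 fibroblast markers 6 were tested and 2 were called lower, Lum, which encodes lumican (-1.68 ± 0.25, adjusted p = 0.0174), and Fbn1, which encodes a fibrillin (-1.0 ± 0.18, adjusted p = 0.0208), with summed Cy5 of 213000 to 252000 with clp, 244000 to 306000 with no named treatment and 285000 to 299000 with tpa. Genes of the hair shaft or its inner sheath were all positive in the same comparison (23 of 23, median 2.10, 2 called), with the 1 hair-poor array described above among the 4 of no named treatment. Per array, the median log2 ratio of this list was -1.08 to 0.96 with clp, and 0.55, -0.08, -0.90 and -5.55 with no named treatment. Its summed Cy5 was 566000 to 1230000 with clp, 51400 to 940000 with no named treatment and 48500 to 1060000 with tpa. The 15 cell cycle genes were all positive as well (median 0.57, 4 called), and 2 of 7 outer root sheath and bulge genes were called higher (median 0.30). Against tpa, 4 immune and 3 fibroblast genes were called lower with clp and 6 hair shaft genes called higher, beside 8.17% of all features called. There 0 of 7 immune, 2 of 6 fibroblast and 23 of 23 hair genes were positive, 2 of the 4 tpa arrays being hair-poor. None of 9 skeletal muscle genes was called in either comparison. The part of these cell types in the Krt77 difference was not tested.

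Krt1, the type II partner of Krt10 in the spinous layer, had its lowest values with clp in 3 of the 4 genotype and day combinations. With no named treatment its log2 ratios were 0.01 (Eng+/-) and 0.81 (wt) at 50 d, and 0.90 (Eng+/-, saturated) and -2.14 (wt) at 90 d. With clp they were -0.80 (Eng+/-) and -0.88 (wt) at 50 d, and -0.56 (Eng+/-) and -1.49 (wt) at 90 d, and with tpa 0.21 (Eng+/-) and 0.33 (wt) at 50 d, and 1.20 (Eng+/-) and 0.18 (wt) at 90 d. The wt array with no named treatment at 90 d was the lowest of the 12, and every clp array lay below every tpa array. The difference of clp minus tpa was -1.41 ± 0.51 (limma, adjusted p = 0.127), negative in 4 of 4 pairs (-1.76 to -1.01). Krt1 and Krt77 were the 2 keratins of 9 whose clp and tpa arrays did not overlap with clp lower, which held for 7.97% of all features. Krt1 passed the threshold in that comparison when either 90 d array with no named treatment was left out (-1.41, adjusted p = 0.0178). Those arrays are not part of clp minus tpa, so the difference was the same and only its error and adjustment changed. Over all features 2969 were then called, in place of 2049. For clp minus no named treatment it had -0.83 ± 0.51 (adjusted p = 0.328), and -1.53 without wt at 90 d. That run leaves the saturated Eng+/- spot (0.90) as the only array of its day and treatment. The value thus depends on which of these arrays is kept. For tpa minus no named treatment it had 0.58 ± 0.51 (adjusted p = 0.482), and 1.29 without Eng+/- at 90 d with no named treatment. That run leaves the lowest array, wt (-2.14), as the only one of its day and treatment. Without that wt array instead, the Krt1 difference turned negative, as all 9 keratin differences then were.

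Krt2, a keratin of the upper spinous and granular layers, had log2 ratios within a narrow range. Its first probe ran from -0.68 (wt tpa at 50 d) to 0.12 (Eng+/- tpa at 50 d) over the 12 arrays with a median of -0.10, and its second from 0.07 (wt clp at 90 d) to 0.72 (wt clp at 50 d) with a median of 0.37. Neither was saturated on any array. The Krt2 differences in the 7 comparisons lay within their intervals of 0, and the interval of clp minus no named treatment was -0.46 to 0.38. The Cy5 signals of the second probe were low, 112 to 356.5, and those of the first ran from 243 to 1702.5. Cy3 was dim at both, 113 to 303 at the first probe and 67.5 to 90 at the second. The Cy3 medians of the arrays were 99 to 140. With such dim Cy3 signals and an offset of 50, the narrow range of ratios does not show that the level was steady.

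The hyperproliferation keratins Krt6b and Krt16 had similar profiles over the 12 arrays, and the first Krt6b probe had the widest range of the keratin probes. The first Krt6b probe had log2 ratios of 2.62 (Eng+/-) and -0.81 (wt) at 50 d and -1.31 (Eng+/-) and -2.05 (wt) at 90 d with no named treatment. With clp they were -3.17 (Eng+/-) and -2.42 (wt) at 50 d and -1.64 (Eng+/-) and -1.90 (wt) at 90 d, and with tpa -2.00 (Eng+/-) and -0.87 (wt) at 50 d and 0.31 (Eng+/-) and 1.41 (wt) at 90 d. The arrays above 0 were thus Eng+/- at 50 d with no named treatment and both tpa arrays at 90 d, and the highest array exceeded the lowest 55.3-fold. Krt16, a type I keratin that pairs with the Krt6 chains, had log2 ratios of 1.74 (Eng+/-) and 0.31 (wt) at 50 d and -0.39 (Eng+/-) and -0.65 (wt) at 90 d with no named treatment. With clp they were -0.70 (Eng+/-) and -0.57 (wt) at 50 d and -1.24 (Eng+/-) and -0.56 (wt) at 90 d, and with tpa -0.90 (Eng+/-) and -0.23 (wt) at 50 d and 0.14 (Eng+/-) and 0.78 (wt) at 90 d. The same array as for Krt6b, Eng+/- at 50 d with no named treatment, was the highest. Over the 12 arrays, which share the pool, the 2 probes correlated with r = 0.91 and rho = 0.84, and with r = 0.68 without the 2 arrays farthest from the Krt6b median.

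**Figure D2:**
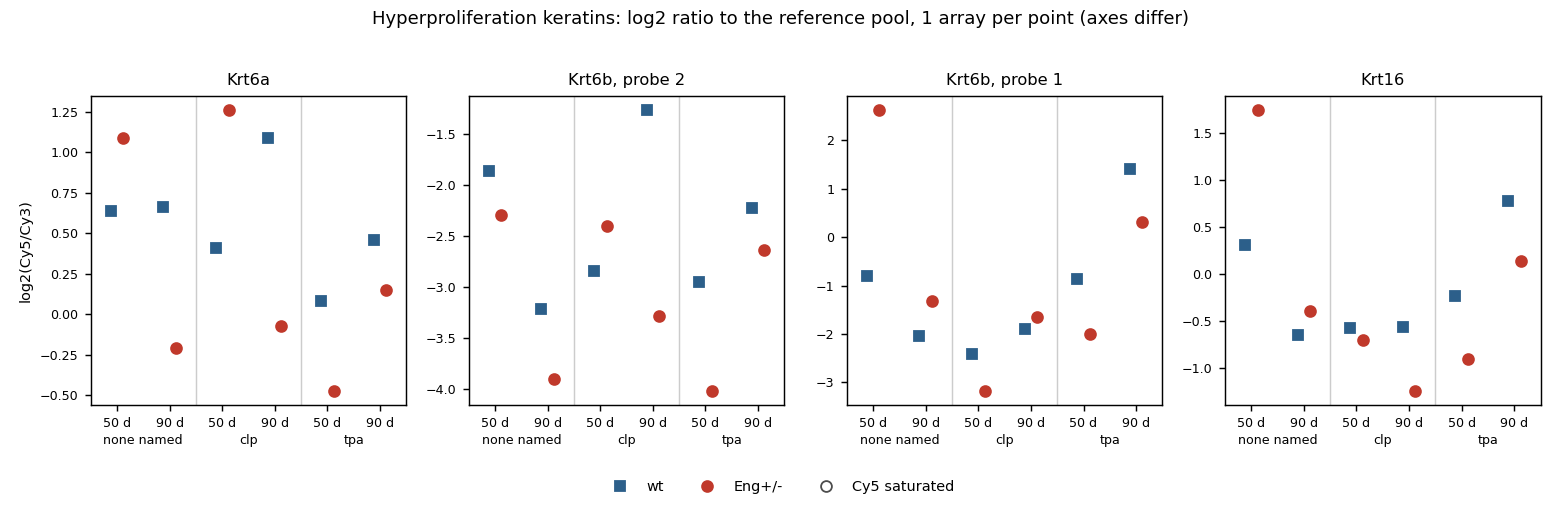
Log2 ratio of Cy5 to Cy3 for Krt6a, the 2 probes of Krt6b and Krt16, by day and treatment; squares are wt, circles Eng+/-, each point is 1 array, and the vertical axes differ. The first Krt6b probe and Krt16 peak in Eng+/- at 50 d with no named treatment (2.62 and 1.74), while Krt6a and the second Krt6b probe peak with clp (1.26 and -1.27).

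In the day comparisons the values of both genes were negative with no named treatment and positive with tpa, and no test was passed. From 50 to 90 d with no named treatment, the difference was -2.58 ± 0.92 for Krt6b and -1.55 ± 0.47 for Krt16 (limma, adjusted p = 0.836 for both), negative in 2 of 2 pairs. With tpa it was 2.30 ± 0.92 for Krt6b (adjusted p = 0.781) and 1.02 ± 0.47 for Krt16 (adjusted p = 0.885), positive in 2 of 2 pairs. With clp it was 1.02 ± 0.92 and -0.26 ± 0.47. No feature was called in the day comparisons (limma, 0% in each), where 1377, 3165 and 1445 features had an unadjusted p under 0.05 with no named treatment, clp and tpa, and the test of day by treatment called none either. In that test the unadjusted p was 0.0117 for Krt6b and 0.012 for Krt16, and the adjusted p was 0.288 for both. Over all features 3419 had an unadjusted p under 0.05 there and the smallest adjusted p was 0.217. Without the Eng+/- array at 50 d with no named treatment, the difference with no named treatment was -0.67 for Krt6b and -0.65 for Krt16. Without the Eng+/- tpa array at 50 d, the difference with tpa was 1.48 for Krt6b and 0.67 for Krt16.

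The medians of hair and cell cycle markers shared the signs of these day differences with no named treatment and with tpa, but not that of Krt6b with clp. With tpa, where both 50 d arrays were hair-poor, 23 of 23 hair genes (median 4.11) and 15 of 15 cell cycle genes (median 0.65) were positive for 90 minus 50 d. With no named treatment, where 1 of the 90 d arrays was hair-poor, 0 of 23 hair genes (median -1.83) and 2 of 15 cell cycle genes (median -0.26) were positive. With clp, 0 of 23 hair genes (median -1.15) and 0 of 15 cell cycle genes (median -0.46) were positive. There Krt6b stood at 1.02 and Krt16 at -0.26. None of these genes was called in the day comparisons, and their part in the Krt6b and Krt16 values was not tested.

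With no named treatment, the arrays of 50 and 90 d did not overlap for 4 of the 9 keratins, all lower at 90 d (Krt10, with saturated spots, Krt77, Krt6b and Krt16), as for 12.2% of all features. Of the 9 differences 8 were negative under loess and 6 under median centring. Their median was -0.91, the value of Krt10 with 1 saturated array of each day, and -0.17 under median centring. With the least saturated probe of each gene it was -1.03, the value of Krt1, which has a saturated spot at 90 d. With tpa, 4 of the 9 did not overlap and were higher at 90 d (Krt5 at its saturated probe, Krt6a, Krt6b and Krt16), against 26.2% of all features. Krt77, whose nearest arrays both read 0.60, was the 1 keratin lower at 90 d with tpa without overlap, against 22.7%. With clp, Krt6b was the 1 keratin of 9 without overlap and was higher at 90 d, against 21.6%.

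Against the arrays with no named treatment, clp gave -1.89 ± 0.65 for Krt6b (limma, adjusted p = 0.103) and -1.02 ± 0.33 for Krt16 (adjusted p = 0.0903). One pair of each did not go down, wt at 90 d (0.15 and 0.09), and the arrays overlapped. The Cy3 signal of the pool at the Krt16 probe ran from 2553.5 to 11634, highest on wt clp at 90 d, and with Cy5 alone the Krt16 difference was -0.31. Krt6b passed the threshold with Cy5 alone (-2.05, adjusted p = 0.0414). Without wt at 50 d with no named treatment, the differences were -2.85 for Krt6b and -1.47 for Krt16. That run leaves the Eng+/- array, the highest for both genes, as the only one of its day and treatment. When that Eng+/- array was left out instead, the day differences with no named treatment shrank, as given above. Against tpa, clp gave -1.99 ± 0.65 for Krt6b (adjusted p = 0.0947), negative in 4 of 4 pairs, and this passed under median centring (-2.10, adjusted p = 0.0297). It also passed when either 50 d array without a named treatment was left out (-1.99, adjusted p = 0.0137). Those arrays are not part of clp minus tpa, so only the error and the adjustment changed. Over all features 2352 were then called, in place of 2049.

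The second Krt6b probe did not follow the first. It ran from -4.02 (Eng+/- tpa at 50 d) to -1.27 (wt clp at 90 d), with a median of -2.75, and gave a clp minus no named treatment difference of 0.37 ± 0.32 (limma, every probe fitted, adjusted p = 0.501), opposite in sign to the first. Its day differences shared the signs of the first probe, -1.48 ± 0.46 with no named treatment and 1.05 ± 0.46 with tpa (adjusted p = 0.802 and 0.9). The 2 Krt6b probes correlated with r = 0.25 over 12 arrays (rho = 0.34), whereas the second correlated with the Krt6a probe with r = 0.79 (rho = 0.75, and r = 0.78 without the 2 farthest arrays). Krt6a and the first Krt6b probe correlated with r = 0.09. Krt6a and Krt6b are near-identical paralogs, so the signal of each probe may hold both transcripts. Whether a probe binds both was not tested.

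Krt6a ran from -0.47 to 1.26. With no named treatment its log2 ratios were 1.09 (Eng+/-) and 0.64 (wt) at 50 d and -0.21 (Eng+/-) and 0.66 (wt) at 90 d. With clp they were 1.26 (Eng+/-) and 0.41 (wt) at 50 d and -0.07 (Eng+/-) and 1.09 (wt) at 90 d, and with tpa -0.47 (Eng+/-) and 0.08 (wt) at 50 d and 0.15 (Eng+/-) and 0.46 (wt) at 90 d. The treatments overlapped throughout, and the difference of clp minus no named treatment was 0.13 ± 0.31 (95% interval -0.57 to 0.83, limma adjusted p = 0.826). The Cy3 signal at this probe varied from 380 to 1194 and went with Cy5 over the 12 arrays (r = 0.77 on the log2 scale).

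Saturation limited the basal keratins, Krt10 and Krt17. A saturated spot gives only a lower bound of the sample's level, and where all 12 are saturated the log2 ratio follows the Cy3 signal and the loess curve. The first Krt5 probe was saturated on 12 of 12 arrays in Cy5 and on 1 in Cy3, and the second on 0. For Krt14 it was 10 of 12, for Krt10 6 of 12 at one probe and 12 of 12 at the other, for Krt17 12 of 12, and for Krt1 1 of 12. The probe of Krt17 and the Krt10 probe saturated throughout also had an outlier flag on 1 array each and were left out of the fit, so that 12 probes of 9 genes were tested. No difference is given for Krt17, whose Cy3 signal ran from 13441 to 36178.

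**Figure D3:**
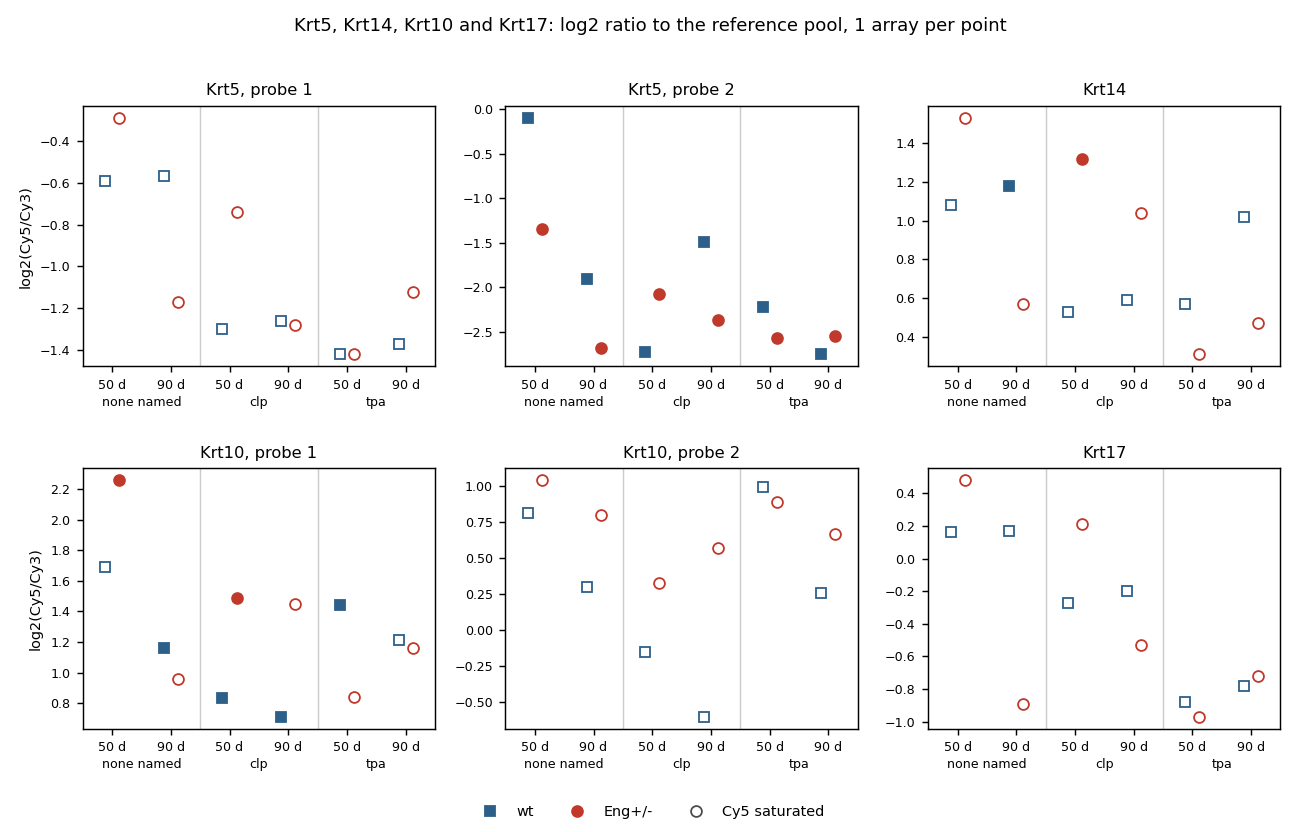
Log2 ratio of Cy5 to Cy3 for both probes of Krt5, for Krt14, both probes of Krt10 and Krt17, by day and treatment; squares are wt, circles Eng+/-, each point is 1 array, hollow points had a saturated Cy5 spot, and the vertical axes differ. Krt5 probe 1, Krt10 probe 2 and Krt17 are hollow on all 12 arrays, Krt14 on 10 and Krt10 probe 1 on 6.

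Krt5, the basal type II keratin, could be followed at its second probe, which was dimmer and never saturated. With no named treatment its log2 ratios were -1.35 (Eng+/-) and -0.10 (wt) at 50 d and -2.68 (Eng+/-) and -1.91 (wt) at 90 d. With clp they were -2.07 (Eng+/-) and -2.72 (wt) at 50 d and -2.36 (Eng+/-) and -1.49 (wt) at 90 d, and with tpa -2.57 (Eng+/-) and -2.22 (wt) at 50 d and -2.54 (Eng+/-) and -2.75 (wt) at 90 d. Both 50 d arrays with no named treatment stood above the other 10. The differences were -1.57 ± 0.41 for 90 minus 50 d with no named treatment (limma, every probe fitted, adjusted p = 0.802), -0.65 ± 0.29 for clp (adjusted p = 0.194) and -1.01 ± 0.29 for tpa minus no named treatment (adjusted p = 0.096). Krt14, the type I partner of Krt5, ran from 0.31 to 1.53, and its unsaturated spots were wt at 90 d with no named treatment (1.18) and Eng+/- clp at 50 d (1.32).

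Krt10, the type I partner of Krt1, was measured below the ceiling on 6 arrays at its first probe. Those were Eng+/- at 50 d (2.26) and wt at 90 d (1.16) with no named treatment, Eng+/- at 50 d (1.49), wt at 50 d (0.83) and wt at 90 d (0.71) with clp, and wt at 50 d (1.44) with tpa. The fitted difference of 90 minus 50 d with no named treatment was -0.91 ± 0.35 (limma, adjusted p = 0.836), with 1 array of each day saturated. The first Krt10 probe and its partner Krt1 correlated with r = 0.22 over the 12 arrays (rho = 0.24).

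No keratin of the 9 was called between Eng+/- and wt, and 0% of all features were (3336 had an unadjusted p under 0.05, the smallest adjusted p being 0.313). With the brightest probe of each gene, the fitted differences of Eng+/- minus wt ran from -0.26 (Krt6a) to 0.69 (Krt1). For Krt1 the difference was 0.69 ± 0.42 (limma, adjusted p = 0.488, higher in 4 of 6 pairs), and 1 pair, 90 d with no named treatment, stood at 3.04, with the Eng+/- spot saturated. Without that Eng+/- array the difference was 0.22. The first Krt6b probe gave 0.24 ± 0.53 (higher in 3 of 6 pairs), and the pair at 50 d with no named treatment stood at 3.43. The second had the opposite sign, -0.70 ± 0.27 (every probe fitted, unadjusted p = 0.0269, adjusted p = 0.348, lower in 5 of 6 pairs). The unsaturated Krt5 probe gave -0.40 ± 0.24 (adjusted p = 0.479), and the saturated one 0.08. For Krt77 it was 0.17 ± 0.15, with an interval of -0.18 to 0.51. In the test of genotype by day, Krt1 had the largest difference (1.95 ± 0.58, limma adjusted p = 0.984), its Eng+/- arrays at 90 d being above wt by 3.04, 0.93 and 1.03 and those at 50 d differing by -0.80, 0.08 and -0.12. The value of 3.04, with its saturated spot, enters this test. No feature was called in it (0%), 898 had an unadjusted p under 0.05 and the smallest adjusted p was 0.0543. Beside these values, 0 of 23 hair genes (median -1.56) and 0 of 15 cell cycle genes (median -0.24) were positive for Eng+/- minus wt, as against 9 of 9 skeletal muscle (median 0.63) and 6 of 6 fibroblast genes (median 0.25). None of them was called, and their part in the keratin values was not tested.

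**Figure D4:**
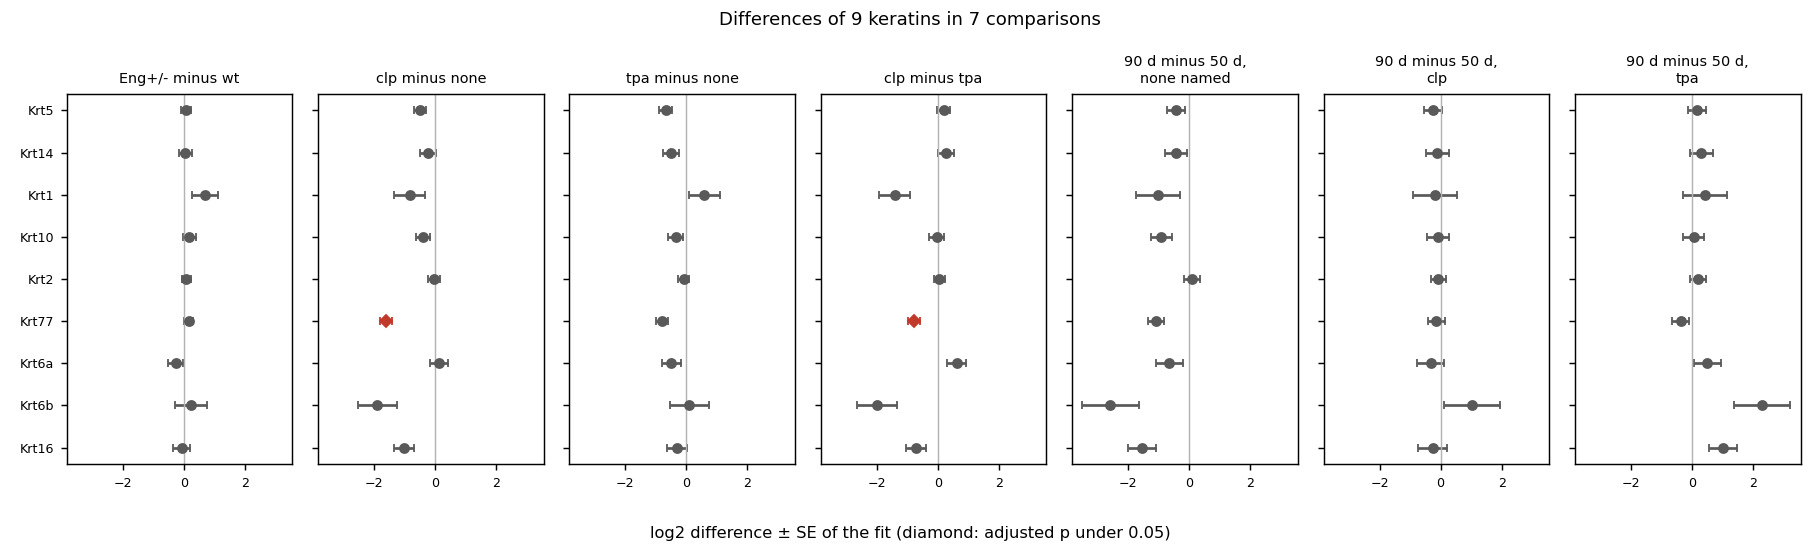
Log2 difference with the SE of the limma fit for 9 keratins in 7 comparisons; diamonds passed an adjusted p of 0.05. Krt77 alone passed, with clp against no named treatment (-1.60) and against tpa (-0.79), while Krt6b has the widest errors, and the Krt5, Krt14, Krt10 and Krt1 values include saturated spots.

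A few other epidermal genes were called in clp minus no named treatment, where 7.76% of all features were called. Of 13 tested cornification genes, 3 were called lower and none higher, among them Lor, which encodes the cornified envelope protein loricrin (-1.07 ± 0.26, limma adjusted p = 0.0412), and Klk5, a protease of the stratum corneum (-0.87 ± 0.20, adjusted p = 0.0373). Of 13 genes of stressed epidermis, 2 were called higher, among them the growth factor gene Hbegf (0.74 ± 0.14, adjusted p = 0.022), and 1 lower, Il1f6, an interleukin gene (-2.33 ± 0.40, adjusted p = 0.0202). Of 13 regulators of keratin genes, 1 was called, Cebpa, a transcription factor of differentiating keratinocytes, which was lower (-1.0 ± 0.22, adjusted p = 0.0311). None of 12 basal adhesion genes was called. The median difference was -0.31 for cornification, 0.03 for stressed epidermis, 0.26 for the regulators and -0.15 for basal adhesion. Among 16 tested keratins outside the 10, Krt75, known from the companion layer of the hair follicle, was higher (1.88 ± 0.46, adjusted p = 0.0423) and Krt42 was lower (-0.92 ± 0.19, adjusted p = 0.0292), and the median was -0.09.

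In clp minus tpa, where 8.17% of all features were called, 1 of the 16 other keratins was called, Krt75 (2.60 ± 0.46, limma adjusted p = 0.0146). In the same comparison 3 of the 13 stressed epidermis genes were called, with Areg, an epidermal growth factor receptor ligand, higher (1.17 ± 0.23, adjusted p = 0.0199) and Il1f6 lower (-1.69 ± 0.40, adjusted p = 0.0371), and 1 of the 13 regulators, Ovol1, which was higher (0.99 ± 0.25, adjusted p = 0.0412). No cornification or basal adhesion gene was called between clp and tpa, and no gene of these 5 lists was called in tpa minus no named treatment, the genotype comparison or the day comparisons.

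By Pearson correlation over the 12 arrays, which share the pool, the nearest genes outside the 10 to the first Krt6b probe were Lce3e (0.969), Lce3f (0.96) and Sprr2g (0.943), genes of late cornified envelope and small proline-rich proteins. Those to Krt16 were Lce3f (0.906), Lce3e (0.883) and Gsdmc4 (0.88). Krt1 was nearest to Hal (0.946), which encodes the histidase of the stratum corneum, Klk9 (0.939) and Rora (0.934). Krt77 was nearest to Pcdhga9 (0.919), Glrx (0.911) and Ptdss1 (0.906). The second Krt5 probe was nearest to Dsg1b (0.976), which encodes a desmosomal cadherin, Prss48 (0.966) and Vmn2r3 (0.95), and Krt14, with 10 saturated spots, to Lgals7 (0.943), an epithelial galectin gene, Mdh2 (0.888) and Stk35 (0.88). Krt6a was nearest to Gm5476 (0.953), Cxcr4 (0.935) and Pbx2 (0.922). The first Krt2 probe was nearest to 2810433D01Rik (0.908), Ndnf (0.894) and F930017D23Rik (0.863), and the first Krt10 probe to Sparc (0.881), Mdh2 (0.869) and Pygb (0.861).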

How the data were processed

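Per the file headers, the arrays were quantified with Feature Extraction 10.7.3.1, with annotation build mm9. The submitters' processing notes give Feature Extraction 10.0. The deposited files hold the intensity of foreground and background per spot and channel, and processed intensities that the authors background-subtracted and dye-normalised. The deposited value table holds log10 ratios of processed Cy5 over Cy3 and equals the ratio in the scanner files (largest difference 0). All 12 arrays have the sample in Cy5, per the labels, and were scanned on 1 day. By contrast, the series design text speaks of dye swaps and of control RNA as Cy3, and names a different scanner.

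Median intensities were processed in R 4.3.3 with limma 3.58.1: normexp (offset 50), loess within each array without control spots, no normalisation between arrays. Of 39429 probes, 975 with an outlier flag on any array were left out, and probes with Cy5 well above background on at least 2 arrays were tested. Probes were named by accession through the RefSeq table (27234 of 39429). The brightest probe stood for a gene, which gave 25084 features. One model with 6 conditions of treatment and day plus genotype was fitted (5 residual degrees of freedom, prior 4.16, eBayes with an intensity trend), and a second that adds every 2-way interaction (leaving 2 residual degrees of freedom). All p-values are two-sided, Benjamini-Hochberg adjusted over the features, called at 0.05. Since groups hold single arrays, errors come from the residuals of the model. Which animals or cultures the samples came from is not given. The number of arrays limits the precision. The comparisons of the first model were tested on simulated data, and the interaction tests were not. No gene coordinates beyond the RefSeq promoter table are given, since its build differs from that of the files.

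The keratins and gene lists were chosen with earlier results of these data known. The named genes are the 10 keratins with all probes, the 3 nearest genes by Pearson correlation for each, and up to 2 genes with the smallest p of each other list. Levels of different probes are not compared. Alternatives were median centring, the authors' processed signals, Cy5 alone, no background subtraction, an offset of 10, 2 other filters on dim probes, every probe as a feature, the least saturated probe, Aquantile, and leaving out each array. Chosen after seeing the data were keeping the outlier-flagged spots and leaving out wt at 50 d with no named treatment together with wt clp at 90 d.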

Additional observations from a re-analysis of the deposited data

How the results depend on the processing

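No paired analysis was possible by replicate number because the labels give none. The model already matches the genotypes within each condition. Of the 63 differences (9 keratins in 7 comparisons), 23 kept their sign under every alternative run, 40 turned it under at least 1, 21 under median centring and 31 under others. Median centring moved the median of all features to 0.24 with clp and 0.34 with tpa. It gave 88.7% and 83.6% of calls as higher in place of 54.9% and 21.2%. With tpa it made all 9 keratin differences positive, where 7 had been negative. Among those it turned were Krt5 with clp (0.33), Krt5 with tpa (0.01), both at the probe saturated on all arrays, and Krt77 with tpa (0.02). The cause of these shifts was not tested.

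The number of keratins called for clp minus no named treatment was 1, beside 1947 of 25084 features. It was 0 under median centring (1596 features) and 3 with Cy5 alone (6169 features), namely Krt77, Krt6b and Krt10, which has saturated spots. It was 0 to 3 when 1 array was left out (3 to 4506 features). Without both wt at 50 d with no named treatment and wt clp at 90 d, where fewer arrays remain, it was 0 (8 features). For clp minus tpa (1, beside 2049 features) it was 0 to 2 when 1 array was left out (203 to 2969 features) and 0 without those 2 arrays (330 features). For tpa minus no named treatment (0) it was 0 to 3, with 3 without Eng+/- at 90 d with no named treatment. In that run 4966 of all features were called in place of 33, and Krt77 was -0.77 (adjusted p = 0.034). For genotype, the day comparisons and both interactions it was 0 under every alternative run. Leaving out single arrays was not run for genotype by day, which would leave under 2 residual degrees of freedom.

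Over all features, the number called for clp (1947) ranged from 3 to 4506 when 1 array was left out and from 8 to 6169 otherwise, for tpa (33) from 0 to 4966 and from 0 to 1037, and for clp minus tpa (2049) from 203 to 2969 and from 330 to 2360. For genotype (0) it reached 222 and for genotype by day (0) 147, both under other settings than leaving out an array. For day by treatment (0) it reached 216 and 313, and for the day comparisons (0) 263 and 7 (none named), 57 and 1 (clp) or 55 and 245 (tpa). Saturation, not dimness, limits Krt5, Krt14, Krt10 and Krt17.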
